A study of Mus musculus with 38 samples.

Results

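Organoids lacking Ppara were compared with wild-type organoids, both grown in vehicle, across all genes measured. The comparison used 10 of the 38 samples of the series, 5 labelled Ppara-null (A) and 5 labelled Wildtype (WT). Samples were chosen by their genotype and treatment labels alone, and table columns with the letters KD in their names, which no sample title holds, were left out.

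PPARα, the product of Ppara, is a nuclear receptor for fatty acids that binds DNA together with the retinoid X receptor. In liver and small intestine it is known for switching on genes of fatty acid binding, oxidation in mitochondria and peroxisomes, and ketone body formation. PPARδ (Ppard) and PPARγ (Pparg) are its relatives and share many of its target genes.

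Both groups were intestinal stem cell organoids of C57BL6 mice, which are cultures that crypt stem cells form in a gel. Crypts were set in 65% matrigel with 0.1% DMSO and kept for 8 days and 2 passages. The wider study crossed these genotypes, Ppard-fl/fl (D) and Ppard-fl/fl; Ppara-null (DA) with GW501516, a synthetic PPARδ agonist, at 1 uM. The labels name no recombinase for the floxed gene, do not describe the Ppara allele, and do not say whether libraries of a group came from separate animals, so the p-values speak to the spread among these libraries. They also do not say whether vehicle and GW501516 libraries came from the same source. The same genotype contrast was read in libraries that the vehicle contrast does not use, as A against WT under GW501516 (5 and 5 libraries) and DA against D in vehicle (4 and 5).

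Total counts per library ran from 423650 to 546639 in A and from 444465 to 528776 in WT, and 4691 genes passed the filter on low counts. Defining markers of immune and tuft cells were at or near 0: 13 of the 16 immune and 7 of the 10 tuft markers had no count in any of the 10 libraries. The summed immune markers were at 4.1 counts per 1000000 counts of the library (CPM) or less. Stromal and endothelial markers summed to 18.6 to 56.7 CPM in A and 18.9 to 41.1 CPM in WT. Stem cell markers were present, with sums of 393.3 to 583.5 CPM in A and 358.6 to 558.0 CPM in WT. The 10 most abundant genes took 12.9% ± 0.37 of counts in A and 14.2% ± 0.83 in WT (SD, n = 5 each), without overlap (exact permutation test, two-sided, p = 0.00794, adjusted over 4 library summaries 0.0317). Libraries numbered 1 to 36 in the table made up replicates 1 to 3 of each group, and higher numbers made up replicates 4 and 5. Xist, transcribed from the inactive X chromosome, had 99, 117, 72, 0 and 0 counts in A and 0, 65, 84, 0 and 0 in WT, so both groups mixed libraries with and without it, a difference within each group beyond counting error.

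The targeted gene was lower in the knockout. Ppara (ENSMUSG00000022383, chr15:85734983-85802819 in mm10, plus strand) had 2, 0, 2, 2 and 3 counts in the A libraries and 4, 6, 9, 11 and 13 in the WT libraries. Every WT library lay above every A library. In CPM the means were 3.64 ± 2.14 in A and 17.3 ± 7.08 in WT (SD, n = 5 each), and the log2 CPM with a pseudocount of 1 differed by -2.13 (exact permutation test, two-sided, p = 0.00794, the smallest this design allows). By p-value Ppara ranked 5 of 4691, with a log2 fold change of -2.24 ± 0.50 (SE) and a Benjamini-Hochberg adjusted p of 0.0635 from the quasi-likelihood test of edgeR (below, the edgeR adjusted p), which missed the threshold of 0.05. It passed with the library number range as a covariate, at -2.27 and an edgeR adjusted p of 0.0147, with Xist as a covariate (-2.14, 0.0428) and without a filter (-2.27, 0.00382). Without a filter 55 genes passed, with a lowest edgeR adjusted p of 2.02e-96, so passing in that fit carries little weight. Ppara did not pass with DESeq2 (-2.32, adjusted p = 0.0878), limma-trend (-1.50, adjusted p = 0.150), within libraries above 36 (-2.41, edgeR adjusted p = 0.624) or with pseudogene counts added to parents (-2.24, edgeR adjusted p = 0.236). The 3′ tags read only the end of the transcript, which may lie outside the part that the null allele changes, and counts of 0 to 13 set the precision.

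Group means of Ppara were also lower in the other groups that carry the null label. Under GW501516 it was at 3.30 ± 2.29 CPM in A and 16.4 ± 8.06 CPM in WT, a log2 fold change of -2.18 ± 0.52 (edgeR adjusted p = 0.0677). In vehicle it was at 2.01 ± 1.68 CPM in DA (n = 4) and 10.6 ± 6.38 CPM in D (n = 5), with -2.37 ± 0.64 (edgeR adjusted p = 0.168). In both of these contrasts the groups overlapped.

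**Figure D1:**
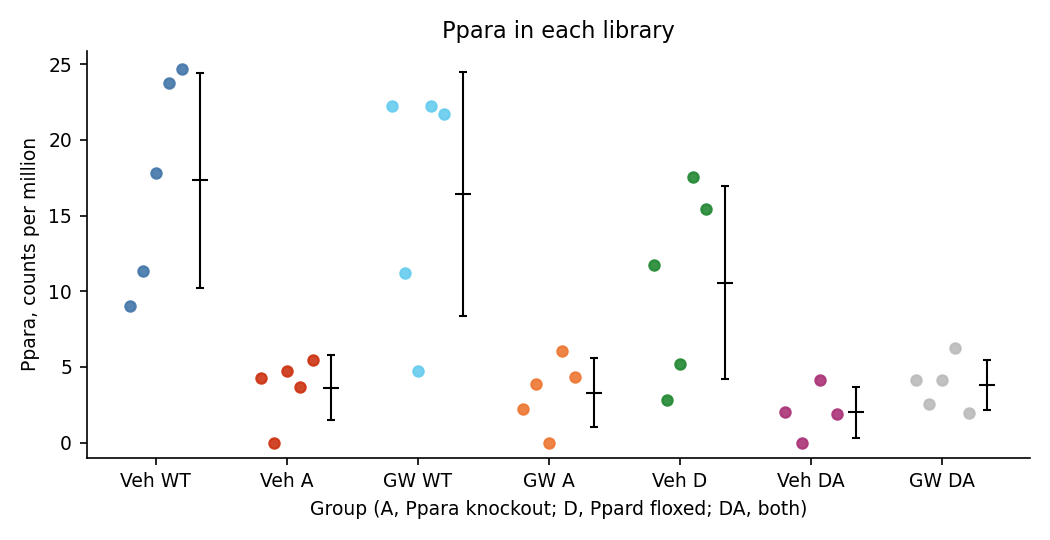
Ppara in CPM (vertical axis) in each library of 7 groups (horizontal axis). Points are libraries and the black mark and bar are the mean and SD. The 5 Veh A libraries lie between 0 and 5.49, below all 5 Veh WT libraries, which start at 9.

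The 2 relatives of Ppara were measured at low counts. Pparg had 15, 12, 8, 11 and 10 counts in A and 12, 8, 12, 14 and 5 in WT, with overlapping groups and a log2 fold change of 0.06 ± 0.30 (95% interval -0.55 to 0.67). In the remaining groups Pparg stayed between 19.1 ± 5.24 CPM (vehicle, D) and 28.1 ± 9.11 CPM (GW501516, DA). Ppard was near its detection limit, with 9 counts over the 5 A libraries and 4 over the 5 WT libraries, and was not tested. Its group means ran from 1.61 to 3.73 CPM over the 7 groups, D and DA included.

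Of 4691 genes tested, 4 passed at an adjusted p of 0.05, which is 0.0853%, and all 4 were higher in A. No gene was lower. At an unadjusted p under 0.05 there were 207 genes, 4.41% of those tested. All 4 genes that passed are annotated as processed pseudogenes, intronless copies of an mRNA that were inserted elsewhere in the genome. Their parents encode ribosomal proteins: Rplp0, the stalk protein of the large subunit, for Gm9625 and Gm6278, Rpl15 of the large subunit for Gm8420, and Rps15a of the small subunit for Rps15a-ps8. The 4 calls were not stable to the libraries used: leaving out WT replicate 1, 3, 4 or 5 gave 0 calls, and leaving out A replicate 1 or WT replicate 2, limma-trend, or a fit of the compared groups alone gave 1. Pseudogenes were 75 of the genes tested (1.6%), while none of the 4486 protein-coding genes passed.

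The level of such a copy is uncertain, because reads without a differing base cannot be assigned to it or to its parent. To show the bases that separate them, a stretch of 100 bases is printed for the 4 copies that passed and for 2 that ranked next, Rps13-ps1 and Rpl30-ps9. Each is set above the same stretch of the parent's coding sequence. The stretch is the one without a gap that holds the most differences, so it is not a typical one. It was not chosen by where the 3′ tags fall, and for Gm9625, Gm8420 and Rps15a-ps8 it lies toward the 5′ end of the copy. Capitals mark the bases that differ between the pair. Positions are those of mm10, and each sequence is written 5′ to 3′ on the strand of the copy, or of the parent mRNA.

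For Gm9625 (chr13:67810246-67811200, plus strand), 24 of 954 aligned coding bases differed from Rplp0, an identity of 97.5%, and the stretch is chr13:67810437-67810536.
Gm9625: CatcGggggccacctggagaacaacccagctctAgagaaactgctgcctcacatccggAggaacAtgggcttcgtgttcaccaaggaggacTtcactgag
Rplp0: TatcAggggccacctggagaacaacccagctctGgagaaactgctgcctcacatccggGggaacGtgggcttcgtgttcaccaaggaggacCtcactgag

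For Gm6278 (chr16:85644252-85645023, plus strand), 22 of 666 aligned coding bases differed from the same parent, and the stretch is chr16:85644743-85644842.
Gm6278: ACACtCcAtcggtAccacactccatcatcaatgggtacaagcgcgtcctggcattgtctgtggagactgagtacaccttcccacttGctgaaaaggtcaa
Rplp0: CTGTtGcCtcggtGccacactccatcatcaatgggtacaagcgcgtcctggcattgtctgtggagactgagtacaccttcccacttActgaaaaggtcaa

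For Gm8420 (chr1:51940664-51941261, minus strand), 20 of 596 aligned coding bases differed from Rpl15, and the stretch is chr1:51941082-51941181.
Gm8420: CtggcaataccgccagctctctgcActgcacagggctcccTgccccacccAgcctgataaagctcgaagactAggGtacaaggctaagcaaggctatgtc
Rpl15: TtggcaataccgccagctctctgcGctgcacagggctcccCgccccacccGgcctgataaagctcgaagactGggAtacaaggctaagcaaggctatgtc

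For Rps15a-ps8 (chr4:53791070-53791456, minus strand), 30 of 387 aligned coding bases differed from Rps15a, an identity of 92.2% and the lowest of the 6 pairs shown, and the stretch is chr4:53791351-53791450.
Rps15a-ps8: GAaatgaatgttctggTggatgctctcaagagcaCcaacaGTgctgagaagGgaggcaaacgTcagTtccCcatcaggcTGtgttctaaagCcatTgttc
Rps15a: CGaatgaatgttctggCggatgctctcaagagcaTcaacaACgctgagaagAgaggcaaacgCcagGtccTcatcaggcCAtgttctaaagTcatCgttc

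For Rps13-ps1 (chr8:87047689-87048226, plus strand), 2 of 456 aligned coding bases differed from Rps13, an identity of 99.6%, and both lie in the stretch chr8:87048076-87048175.
Rps13-ps1: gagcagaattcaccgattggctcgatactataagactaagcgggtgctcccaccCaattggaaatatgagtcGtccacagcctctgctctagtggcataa
Rps13: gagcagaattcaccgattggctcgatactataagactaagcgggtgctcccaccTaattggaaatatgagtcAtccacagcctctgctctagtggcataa

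For Rpl30-ps9 (chrX:105278637-105278981, minus strand), 2 of 345 aligned coding bases differed from Rpl30, and the stretch chrX:105278637-105278736 holds 1 of them.
Rpl30-ps9: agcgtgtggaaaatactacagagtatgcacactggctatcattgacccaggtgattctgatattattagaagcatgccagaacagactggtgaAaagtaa
Rpl30: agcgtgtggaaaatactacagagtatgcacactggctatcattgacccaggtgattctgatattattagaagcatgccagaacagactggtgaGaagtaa

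The 4 copies that passed had at most 10 counts in any WT library and more in most A libraries. Gm9625 (ENSMUSG00000097906) had 23, 14, 3, 47 and 35 counts in A and 0, 2, 0, 1 and 0 in WT, with no overlap, and a log2 fold change of 4.95 ± 0.92 (edgeR adjusted p = 0.0211). Gm8420 (ENSMUSG00000072324) had 162, 181, 69, 15 and 101 counts in A and 3, 3, 0, 10 and 10 in WT, also without overlap, and rose by 4.30 ± 0.83 (edgeR adjusted p = 0.0211). Replicate 4 of A was the low library for Gm8420 and the high library for Gm9625.

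Gm6278 and Rps15a-ps8 each had an A library with no count at all. Gm6278 had 159, 136, 0, 410 and 231 counts in A and 3, 10, 3, 7 and 5 in WT, and rose by 4.87 ± 0.97 (edgeR adjusted p = 0.0215). Rps15a-ps8 had 206, 176, 135, 74 and 0 counts in A and 2, 10, 4, 2 and 1 in WT, and rose by 4.93 ± 1.00 (edgeR adjusted p = 0.0227). In both cases the empty library, replicate 3 for Gm6278 and replicate 5 for Rps15a-ps8, lay below the WT libraries while the other 4 lay far above them.

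Rps13-ps1, just outside the threshold, had the most counts of these copies. It carried 524, 545, 511, 306 and 0 counts in A and 11, 26, 41, 22 and 0 in WT (log2 fold change 4.24 ± 0.95, edgeR adjusted p = 0.0635). Rpl30-ps9 had 33, 57, 40, 46 and 0 counts in A and 5, 0, 6, 0 and 4 in WT (3.47 ± 0.80, edgeR adjusted p = 0.0674). Replicate 5 of A was the empty library for both, as it was for Rps15a-ps8.

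Parent genes were read beside their copies, and Rps13 had the widest spread. Rps13, a protein of the small subunit, had 227, 234, 213, 522 and 959 counts in A against 705, 830, 807, 656 and 839 in WT, so replicates 1 to 4 of A lay below every WT library and replicate 5 had the most counts of all 10. Its fitted log2 fold change was -0.98 ± 0.28 (edgeR adjusted p = 0.502). Counts of all 4 Rps13 copies made up 74.0%, 73.9%, 75.7%, 44.6% and 8.84% of the family in A and 8.41% to 12.8% in WT. The family summed to 1891 ± 118 CPM in A and 1750 ± 94.2 CPM in WT, and with the copies' counts added to the parent its log2 fold change was 0.04 ± 0.10.

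In the other 4 families the copies held smaller shares. Copies of Rplp0 held 9.41%, 9.08%, 0.28%, 19.1% and 10.4% of the family counts in A and at most 0.74% in WT, while the family summed to 4339 ± 503 and 4238 ± 620 CPM. Copies of Rpl15 held 15.2%, 15.4%, 6.63%, 1.13% and 7.96% in A and at most 1.21% in WT, with sums of 3892 ± 118 and 3785 ± 202 CPM. In A the shares thus differed widely from library to library, with replicate 3 lowest for Rplp0 and replicate 4 lowest for Rpl15.

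For Rps15a the copies held 15.1%, 14.9%, 12.9%, 6.58% and 1.72% in A and 1.23% to 2.21% in WT, and for Rpl30 they held 3.82%, 8.09%, 3.95%, 5.47% and 0.29% in A and 0.24% to 1.15% in WT. The sums were 2993 ± 291 and 3550 ± 800 CPM for Rps15a and 2166 ± 326 and 2267 ± 434 CPM for Rpl30. With copies added to parents, the log2 fold changes were -0.03 ± 0.10 for Rplp0, -0.03 ± 0.10 for Rpl15, -0.33 ± 0.22 for Rps15a and -0.14 ± 0.20 for Rpl30, all with an edgeR adjusted p of 1. Fitted in this way, or with all pseudogenes left out, no gene passed (lowest edgeR adjusted p 0.236 and 0.234). Both of these fits were chosen after seeing the data.

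**Figure D2:**
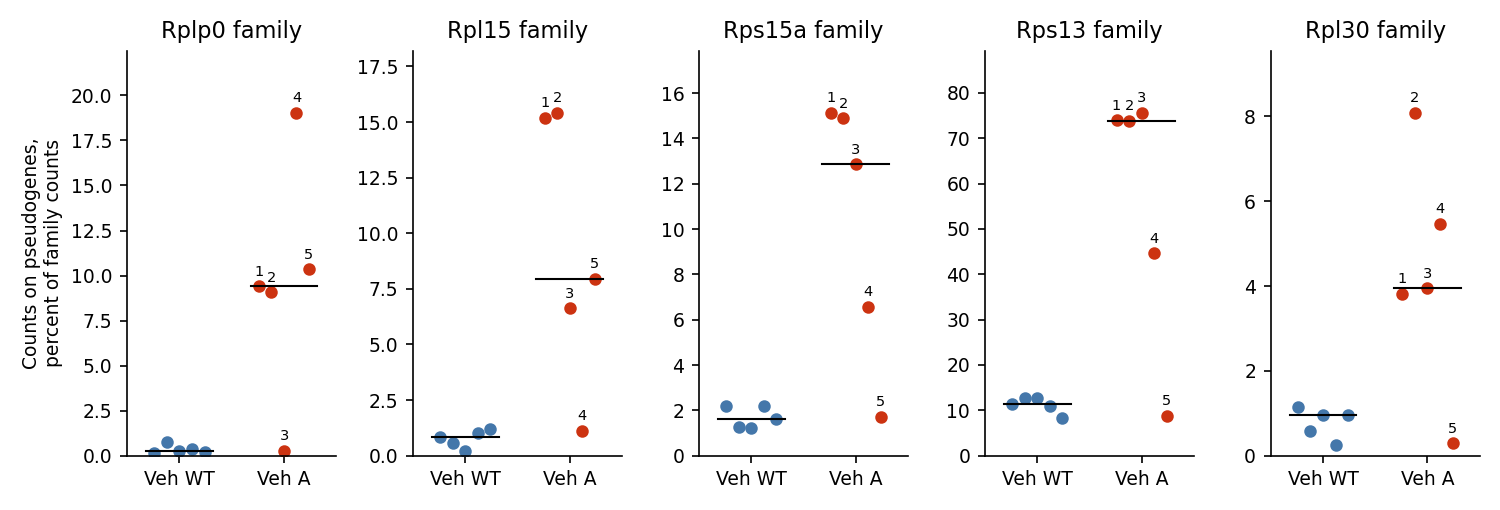
Share of a family's counts that fell on its pseudogenes, in percent (vertical axis, from 0, scaled per panel), for 5 ribosomal protein genes in the vehicle libraries of WT and A. Points are libraries, numbers above the A points are replicates, and lines are medians. The WT points stay together, at most 12.8% for Rps13 and at most 2.21% in the other panels, while the A points spread over separate levels up to 75.7%.

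The copies were next read in libraries that the vehicle contrast does not use, though the GW501516 libraries may share a source with the vehicle libraries. Shares of Rps13 counts on copies were 42.4%, 74.3%, 72.3%, 42.6% and 9.69% in the A libraries under GW501516. A vehicle library and a GW501516 library, replicate 4 of each, were alike at 19.1% and 19.4% for Rplp0, 1.13% and 1.04% for Rpl15 and 44.6% and 42.6% for Rps13. Replicate 5 of each was alike at 10.4% and 10.2%, 7.96% and 6.34%, and 8.84% and 9.69%. For Rplp0, replicate 2 was alike as well (9.08% and 8.78%), but replicate 1 (9.41% and 19.1%) and replicate 3 (0.28% and 9.93%) were not. Replicate numbers are only column order, so libraries of the same number need not belong together. The fit treats all libraries as independent, so the GW501516 values are set beside the vehicle values and are not independent evidence, and the tests of the difference carry the same limit. Under GW501516, 9 genes passed, all higher in A (0.192% of 4691), and they included all 4 of the vehicle calls, with log2 fold changes of 4.29 for Gm9625, 4.22 for Gm8420, 5.03 for Gm6278 and 4.66 for Rps15a-ps8. In DA against D, 15 genes passed (0.32%), 11 higher and 4 lower, and 2 of the 4 vehicle calls were among them, Gm8420 at 3.85 ± 0.86 (edgeR adjusted p = 0.0334) and Rps15a-ps8 at 4.67 ± 1.01 (edgeR adjusted p = 0.0317). The vehicle calls were thus 44.4% of the GW501516 calls and the shared calls 13.3% of the DA calls. Gm9625 and Gm6278 had 3.35 ± 1.15 and 3.84 ± 1.20 in DA against D and missed the threshold there.

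At an unadjusted p under 0.05 there were 231 genes under GW501516 (4.92%) and 288 in DA against D (6.14%). Neither difference between these contrasts and the vehicle contrast held a gene that passed. For vehicle minus GW501516 the lowest edgeR adjusted p was 1, with 153 genes at an unadjusted p under 0.05 (3.26%), and for vehicle A against WT minus DA against D it was also 1, with 145 genes (3.09%). DESeq2 gave 0 for both, and limma-trend gave 0 and 1. Of the 18 genes that passed in any of the 3 contrasts, 17 had the same sign in all 3. The exception was Gm28438, at 2.01 ± 1.76 in vehicle, -2.96 under GW501516 and -7.64 in DA against D. The 18 genes were picked for passing in at least 1 of these same contrasts, so their shared sign is no separate support.

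**Figure D3:**
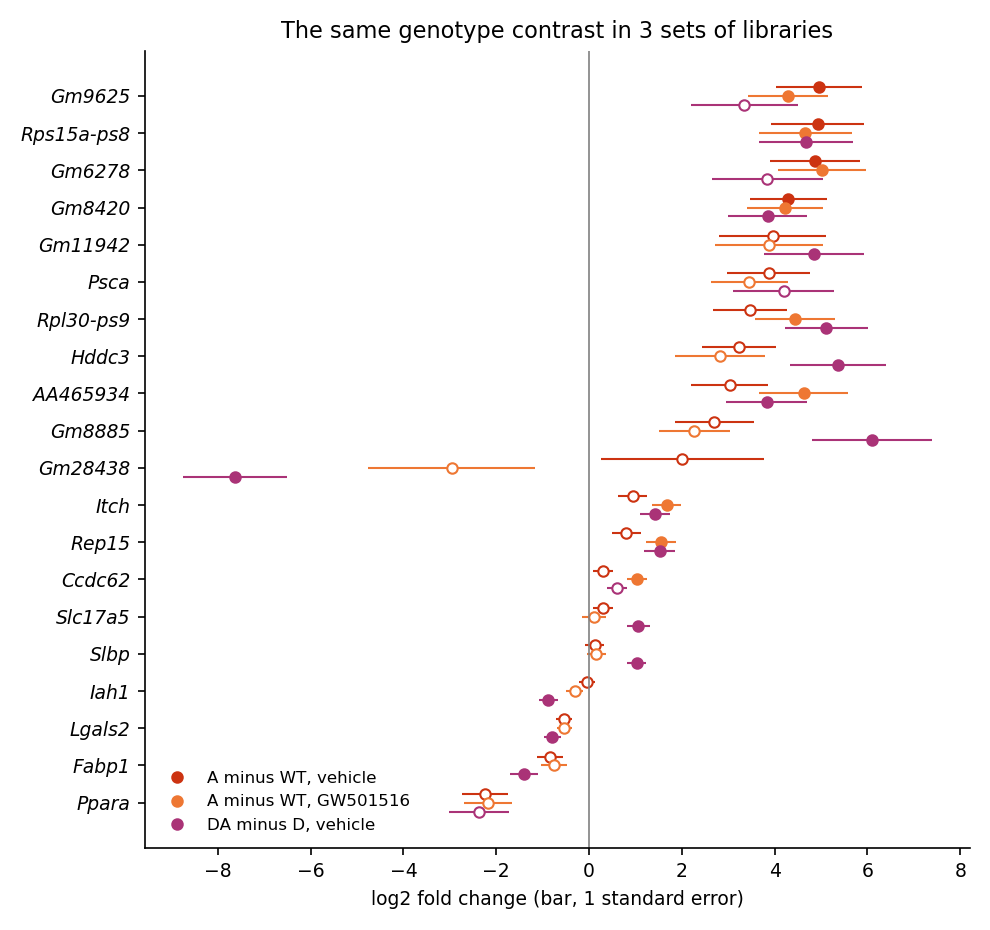
Log2 fold change (horizontal axis) with 1 standard error for the 18 genes that passed in any of 3 contrasts, with Ppara and Psca added. Filled points passed at an adjusted p of 0.05 and open points did not. For Gm8420 the 3 values were 4.30, 4.22 and 3.85, and for Ppara, which passed in none, -2.24, -2.18 and -2.37.

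Among protein-coding genes the groups did not overlap for a small set. Over all genes, the CPM ranges of A and WT were apart for 36 genes, 0.767% of those tested, 28 of them higher in A (0.597%) and 8 lower (0.171%). Random ordering of 5 and 5 libraries sets groups apart with a probability of 0.00794, the smallest p of the exact permutation test. The share of 0.767% is near it, so being apart does not by itself set a gene off from chance. Besides Gm9625, Gm8420 and Ppara, the smallest p-values in this set belonged to Psca and Tbc1d23. Psca, a GPI-anchored surface protein, had 4, 37, 12, 7 and 9 counts in A and 1, 0, 0, 2 and 1 in WT (log2 fold change 3.87 ± 0.89, edgeR adjusted p = 0.0674). Its gene lies on the chromosome of Ppara (chr15:74714839-74717069), and whether the difference is tied to that locus was not tested. Under GW501516 the groups were apart for 21 genes (0.448%, with 0.298% higher and 0.149% lower), and in DA against D for 125 (2.66%, with 1.96% higher and 0.703% lower). With only 4 libraries in DA, chance sets groups apart more often, so the share of DA against D cannot be set against the others. Psca was the only gene of the 36 whose groups were apart in the same direction in all 3 contrasts, with 3.46 ± 0.82 under GW501516 and 4.20 ± 1.09 in DA against D (edgeR adjusted p = 0.0677 and 0.117). In vehicle Psca passed with DESeq2, at 4.10 (adjusted p = 0.0376), and not with limma-trend, at 2.19 (adjusted p = 0.0853). Its value was 5.30 within libraries 1 to 36 and 2.12 within higher numbers (edgeR adjusted p = 0.0759 and 0.999).

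Tbc1d23, a TBC-domain protein of the trans-Golgi network, had 10, 11, 11, 9 and 13 counts in A and 4, 3, 1, 4 and 6 in WT, a log2 fold change of 1.49 ± 0.38 (edgeR adjusted p = 0.163). Hddc3, an HD-domain hydrolase, had 21, 0, 18, 30 and 27 counts in A and 1 or 2 in every WT library (3.24 ± 0.80, edgeR adjusted p = 0.123), and passed in DA against D at 5.37 ± 1.03 (edgeR adjusted p = 0.0131). Replicate 2 of A, with 0 counts, was the library below WT. The noncoding transcript AA465934 had 71, 65, 29, 1 and 2 counts in A and 3 to 6 in WT (3.03 ± 0.83, edgeR adjusted p = 0.315), and among libraries numbered above 36 its sign turned, at -1.35.

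Some genes that passed in the other contrasts were split by library within A. Itch, a ubiquitin ligase, had 136, 137, 117, 70 and 54 counts in A and 46 to 65 in WT. In CPM replicates 1 to 3 of A, at 276 to 291, lay far above the WT libraries (93.1 to 123), replicate 4 lay just above them at 129.7 and replicate 5 lay among them. Its log2 fold change was 0.94 ± 0.31 in vehicle (edgeR adjusted p = 0.630), 1.68 ± 0.32 under GW501516 (edgeR adjusted p = 0.0118) and 1.42 ± 0.32 in DA against D (edgeR adjusted p = 0.0345). Within libraries numbered 1 to 36 it was 1.29 (edgeR adjusted p = 0.0109) and within higher numbers 0.09 (edgeR adjusted p = 0.999). Rep15, a protein that binds the recycling GTPase Rab15, followed the same split, with 180, 180, 165, 94 and 68 counts in A and 57 to 109 in WT (0.80 ± 0.32, edgeR adjusted p = 0.933), and passed in both other contrasts at 1.55 and 1.52.

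Exoc1, a subunit of the exocyst complex, and Ang4, an antimicrobial ribonuclease of Paneth cells, were split in the other direction. Exoc1 had 44, 28, 34, 159 and 141 counts in A and 127 to 337 in WT (-1.49 ± 0.46, edgeR adjusted p = 0.582). Ang4 had 20, 32, 27, 165 and 167 counts in A and 120 to 210 in WT (-1.25 ± 0.43, edgeR adjusted p = 0.707). For both, replicates 1 to 3 of A lay below all WT libraries and replicates 4 and 5 lay among them. Within libraries numbered 1 to 36 the values were -2.79 for Exoc1 and -2.70 for Ang4, and both passed (edgeR adjusted p = 7.40e-04 and 5.57e-04), while within higher numbers they were 0.02 and -0.24. The splits of Itch, Exoc1 and Ang4 were seen in these same libraries, so passing within libraries 1 to 36 is no separate support for them. The same replicates 1 to 3 of A were those with Xist counts, so within A the number range and Xist cannot be told apart. With Xist as a covariate the values were 0.80 for Itch, 0.66 for Rep15, -1.47 for Exoc1 and -1.25 for Ang4 (edgeR adjusted p = 0.553, 0.683, 0.369 and 0.369). What differs between the number ranges is not given in the labels.

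Among the lipid genes, those of fatty acid binding are described first. Fabp1, the liver-type fatty acid binding protein and a textbook PPARα target, had 3629, 5043, 4692, 4452 and 5946 counts in A and 5996, 10344, 8857, 6964 and 9089 in WT. The CPM ranges were apart, with all A libraries at 11075 CPM or less and all WT libraries at 13490 CPM or more. The means were 9675 ± 1557 and 16580 ± 2352 CPM, a log2 fold change of -0.85 ± 0.28 that did not pass over all genes (edgeR adjusted p = 0.630). It was -0.96 with Xist as a covariate, where it passed (edgeR adjusted p = 0.0428), and -0.86 and -0.82 within the 2 ranges of library numbers. Under GW501516 the difference was -0.76 ± 0.28 (edgeR adjusted p = 0.673), and in DA against D it passed, at -1.40 ± 0.30 (edgeR adjusted p = 0.0317).

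Fabp1 belongs to the list of fatty acid uptake and activation. Of this list, Fabp1 included, none of the 6 tested of 13 passed, 1 was positive and 5 were negative, and the median log2 fold change was -0.13 beside -0.01 over all genes tested. Fabp2, the intestinal fatty acid binding protein, was at 2131 ± 440 CPM in A and 2652 ± 505 CPM in WT (-0.39 ± 0.19, edgeR adjusted p = 1), with overlapping groups. In these bulk samples, fewer cells of a type and less RNA per cell cannot be told apart.

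Enzymes of mitochondrial fatty acid oxidation lay slightly below WT as a list, and none passed. Of 17 tested of 19, 3 were positive and 14 negative, with a median of -0.19 and a range of -0.55 to 0.08. Eci2, an isomerase for unsaturated fatty acids, was at 52.2 ± 5.74 CPM in A and 65.96 ± 18.4 CPM in WT (-0.39 ± 0.19, unadjusted p = 0.0448 by edgeR), the only member under 0.05. Slc25a20, the carnitine carrier of the inner membrane, was at -0.55 ± 0.34, and Acadvl and Acaa2, the very long chain dehydrogenase and a thiolase, at -0.37 ± 0.23 and -0.34 ± 0.17. Cpt1a, which commits fatty acids to the mitochondrion, had 7, 9, 3, 15 and 7 counts in A and 12, 6, 8, 12 and 11 in WT (-0.34 ± 0.31, 95% interval -0.97 to 0.29), and Acadm, the medium chain dehydrogenase, was at -0.22 ± 0.19. The same list had medians of -0.12 under GW501516 and -0.26 in DA against D. Within libraries numbered 1 to 36 and within higher numbers, Eci2 was at -0.13 and -0.73, Slc25a20 at -0.11 and -1.08 and Acadvl at -0.19 and -0.55. The values lay closer together for Acaa2 (-0.36 and -0.31), Cpt1a (-0.41 and -0.27) and Acadm (-0.19 and -0.245).

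Peroxisomal genes lay on both sides of 0. Of 16 tested of 22, 7 were positive and 9 negative, with a median of -0.04 and no gene that passed. Pxmp4, a peroxisomal membrane protein, was the member with groups apart, with 8, 6, 10, 8 and 4 counts in A and 12, 14, 12, 11 and 18 in WT (-0.94 ± 0.35, edgeR adjusted p = 0.8003). Ehhadh, the bifunctional enzyme of peroxisomal oxidation, was at 0.21 ± 0.30 (95% interval -0.40 to 0.81).

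Other PPAR targets were measured at low counts. Of 11 tested of 22, 9 were positive and none passed, with a median of 0.23 in vehicle, -0.36 under GW501516 and 0.08 in DA against D. Angptl4, a secreted lipase inhibitor, had 11, 21, 13, 17 and 13 counts in A and 13, 9, 8, 11 and 18 in WT (0.28 ± 0.27, 95% interval -0.26 to 0.82). Acot1, a cytosolic thioesterase, was at 0.36 ± 0.43, the lipid droplet coat protein Plin2 at 0.35 ± 0.28, and Hilpda, a lipid droplet protein, at 0.49 ± 0.37. Aldh3a2, a fatty aldehyde dehydrogenase, was negative, at -0.44 ± 0.28, and Creb3l3, a liver and gut transcription factor, was at -0.16 ± 0.32. Pdk4, the kinase that shuts pyruvate dehydrogenase, had 0 counts in all 10 libraries, which allows up to 1.22 CPM over a group, and 5 further list members including Fgf21 and Cyp4a10 had none.

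Ketone body genes were few. None of the 6 tested of 7 passed, 4 were positive, and the median was 0.22. Under GW501516 the median was -0.03, with 3 positive, and in DA against D -0.22, with 2 positive. Bdh1, which interconverts the 2 ketone bodies, was at 0.36 ± 0.23.

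Lipid storage, synthesis and respiration lists held no gene that passed either. Medians were -0.06 for triglyceride, lipid droplet and chylomicron genes (16 tested), 0.20 for fatty acid synthesis (9) and 0.05 for cholesterol synthesis (20). Under GW501516 the medians of these lists were -0.03, -0.24 and -0.045, and in DA against D they were -0.09, -0.22 and -0.045. Hsd17b7 of cholesterol synthesis was at 0.53 ± 0.24 (unadjusted p = 0.0384 by edgeR). Nuclear genes of oxidative phosphorylation had a median of -0.11, with 11 of 73 positive, and mitochondrially encoded genes -0.10, with 1 of 13 positive. Under GW501516 the nuclear list was at 0.06, with 55 of 73 positive, and the mitochondrially encoded list at -0.09, with 3 of 13 positive. In DA against D they were at -0.17, with 9 of 73 positive, and -0.19, with 1 of 13 positive. Mitochondrial transcripts took 8.16% ± 0.25 of the counts in A and 8.94% ± 0.72 in WT (SD, n = 5 each; exact permutation test, two-sided, p = 0.0635, adjusted over 4 summaries 0.127).

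**Figure D4:**
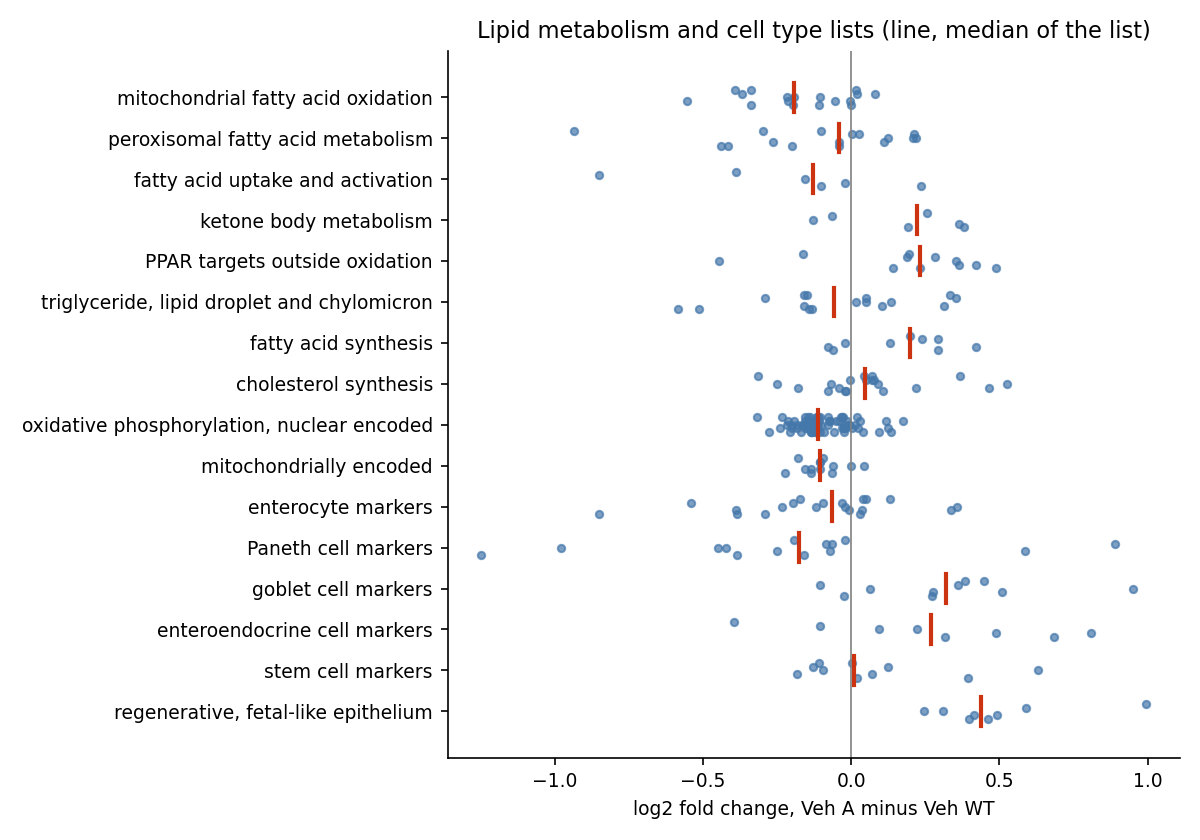
Log2 fold change of A minus WT in vehicle (horizontal axis) for each tested member (points) of 16 lists, with the median of each list as a line. Fabp1 is the lowest point of fatty acid uptake and activation, at -0.85, and no point of any list shown passed the test.

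Marker lists of epithelial cell types had medians from -0.18 (Paneth cells) to 0.44 (regenerative epithelium). Of 10 goblet cell markers tested, 8 were positive and none passed (median 0.32). Clca1, a secreted protein of goblet cell mucus, had 61, 53, 20, 53 and 36 counts in A and 33, 23, 10, 20 and 23 in WT (0.95 ± 0.38, edgeR adjusted p = 0.961), and Zg16, a mucus lectin, was at 0.45 ± 0.26. All 8 tested markers of regenerative, fetal-like epithelium were positive (median 0.44), and none passed. Clu, a secreted chaperone, had 46, 164, 42, 34 and 35 counts in A and 20, 50, 38, 26 and 23 in WT (1.00 ± 0.45, edgeR adjusted p = 1), and replicate 2 of A was the high library. Without that library the value was 0.25. The same list had medians of 0.36 under GW501516 and 0.73 in DA against D.

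Paneth cell markers had a median of -0.18, with 2 of 14 positive, from Ang4 at the low end to Nupr1, a stress-responsive nuclear protein, at 0.89 ± 0.34. The Paneth list had medians of -0.03 under GW501516 and 0.03 in DA against D. Enteroendocrine markers had a median of 0.27 (8 tested, 6 positive, lowest -0.40), with the lectin Reg4 at 0.81 ± 0.31 and the granule protein Chgb at 0.49 ± 0.26. The list median was -0.05 under GW501516, with 3 positive, and 0.17 in DA against D, with 6 positive. Chgb was negative in both, at -0.34 ± 0.24 and -0.40 ± 0.25. In vehicle Chgb was at 0.08 within libraries numbered 1 to 36 and 0.92 within higher numbers. Stem cell markers had a median of 0.01 (10 tested) and Olfm4, a marker of crypt base stem cells, was at 0.02 ± 0.27 (95% interval -0.53 to 0.57). Lgr5, the stem cell receptor, had 11 counts over the A libraries and 3 over the WT libraries and was not tested.

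Enterocyte markers had a median of -0.06 over 20 tested, 13 of them negative, and their summed level was lower in every A library (16443 to 21876 CPM) than in any WT library (23835 to 32061 CPM), a sum of which Fabp1 is the largest share. Lgals2, a galectin of enterocytes, was the member with the smallest p. It had 2355, 1651, 2463, 3710 and 3311 counts in A and 2655, 3120, 3793, 4172 and 4880 in WT, with overlapping groups (-0.54 ± 0.17, edgeR adjusted p = 0.613). It had -0.53 ± 0.17 under GW501516 and passed in DA against D, at -0.79 ± 0.18 (edgeR adjusted p = 0.0386).

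**Figure D5:**
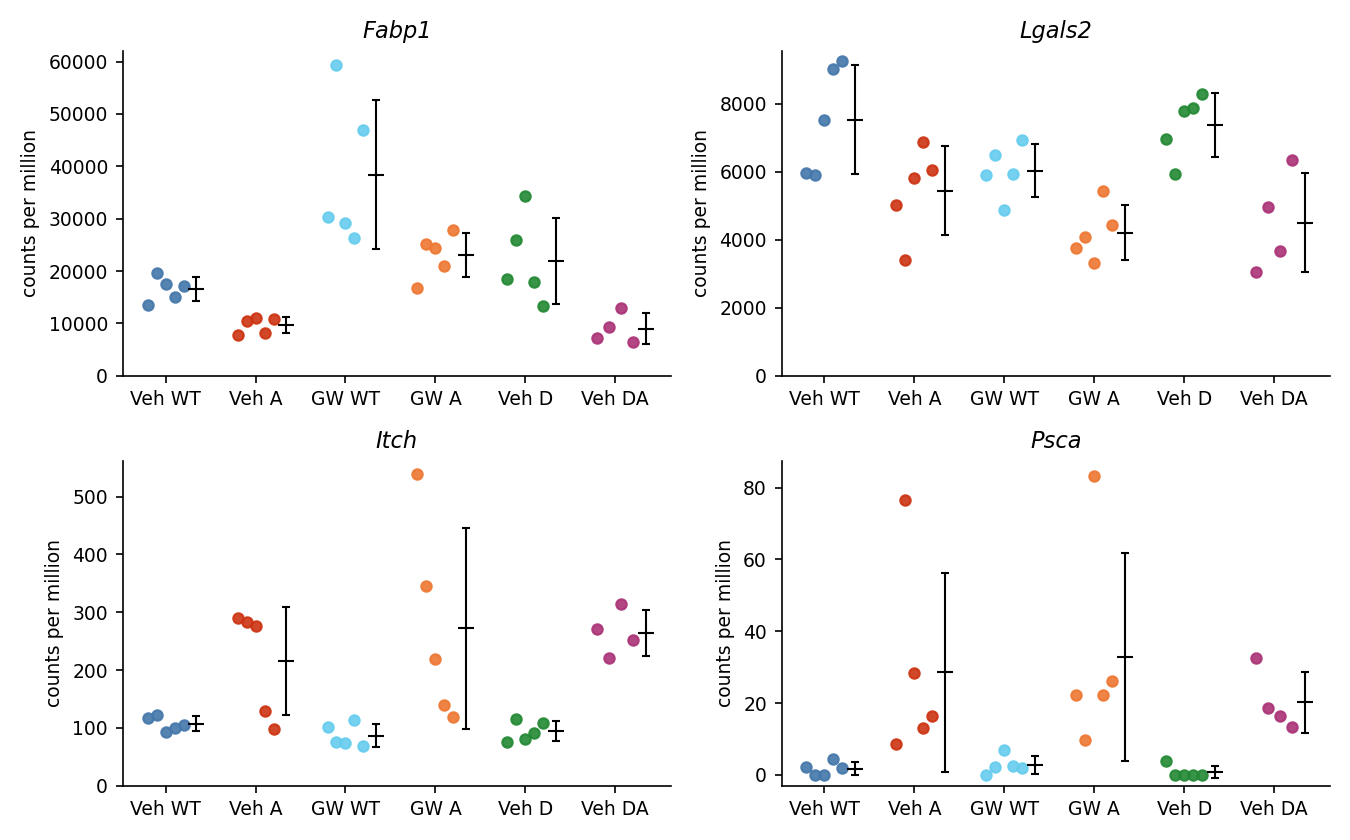
Fabp1, Lgals2, Itch and Psca in CPM (vertical axes) in each library of 6 groups; points are libraries and the black mark and bar are the mean and SD. Fabp1 and Psca are apart between Veh WT and Veh A, and for Itch only replicates 1 to 3 of Veh A, at 276 to 291 CPM, stand well above Veh WT.

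Xenobiotic enzymes had a median of -0.12 with 4 of 29 positive, and Cyp2d26 and the epoxide hydrolase Ephx2 were at -0.51 ± 0.24 and -0.63 ± 0.32. The list was at -0.001 under GW501516, with 14 positive, and at -0.07 in DA against D, with 10 positive. In these 2 contrasts Cyp2d26 was at -0.07 and -0.81, and Ephx2 at -0.43 and 0.07. Proliferation genes had a median of -0.03 over 24 tested, with the replication helicase subunit Mcm7 at 0.51 ± 0.24. Mcm7 was at -0.09 under GW501516 and -0.08 in DA against D. The 9 tested antigen presentation genes had a median of -0.11, with 3 positive and 6 negative. The highest was H2-Bl, a class I gene annotated as a polymorphic pseudogene. It had 13, 12, 10, 0 and 0 counts in A and 1, 4, 1, 0 and 1 in WT (2.20 ± 0.80, edgeR adjusted p = 0.761). Its counts, too, were split between replicates 1 to 3, which hold the Xist counts, and the rest, and among libraries numbered above 36 its sign turned, at -2.37. H2-Bl was at 2.83 ± 1.00 under GW501516 and at -0.37 ± 0.48 in DA against D. Interferon response genes had 2 tested members, of which Ifitm3, an antiviral membrane protein, was at -0.41 ± 0.19.

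Genes near Ppara on chromosome 15 were described as well. Of 30 genes tested within 5 Mb of Ppara, none passed, and 8 had an unadjusted p under 0.05, beside 4.41% of all genes. Cdpf1, whose gene lies 0.07 Mb away, had 11, 6, 5, 5 and 7 counts in A and 9, 13, 8, 17 and 17 in WT (-0.96 ± 0.34, edgeR adjusted p = 0.746). Between Ppara and the start of the chromosome, Cyb5r3, a cytochrome b5 reductase, was higher without overlap (0.58 ± 0.20, edgeR adjusted p = 0.706), Poldip3 was at 1.05 ± 0.39 and Serhl at -0.87 ± 0.29. Both directions thus occurred side by side. The median over the 30 genes was -0.04, and within 10 Mb 10 of 67 genes were under an unadjusted p of 0.05, Lgals2 among them. Psca lies on the same chromosome, farther than 10 Mb from Ppara, and is not in these counts.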

How the data were processed

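Polyadenylated RNA was read by 3′ digital gene expression, and the deposited table gives raw counts for each gene identifier. Tools named in the submitters' processing notes are edgeR 3.26.8, R 3.6.2 and Salmon 1.1.0, with mm10 as the build. The handling of molecular identifiers is not given in the sources used here. The table held 57 columns, of which 34 in 7 groups were used and 23 were not: the KD columns and the 4 GW501516 columns of D, since 1 sample there has a title and a genotype label that conflict. Column names carry no replicate number, so replicates are numbered in column order. GENCODE gave symbols for 54179 of 54352 identifiers.

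Genes were filtered with filterByExpr, scaled with TMM and fitted over the 7 groups with edgeR 4.0.16 (glmQLFit, glmQLFTest) in R 4.3.3. P-values were adjusted over all genes by Benjamini-Hochberg. Pseudogenes were matched to parents by megablast at 85% identity and 80% coverage, and 693 of 776 with at least 10 counts matched. The fit was also run on simulated counts, drawn independently for each library. These counts lacked the splits seen among the A libraries, so that run does not bear on the p-values of the calls. Named were the 3 PPAR genes, genes that passed, up to 4 members per list by p and reference targets, of which 2 are not reported here; genes below the threshold outside the lists, calls of the other contrasts, parents of pseudogenes and neighbours of Ppara were named after their values were seen. Members and lists were chosen with earlier results of these data known. Alternatives (DESeq2 1.42.0, limma 3.58.1, other filters, scalings, covariates and left-out libraries) are in the closing section. Floors of 3 counts and intervals cover counting or model error only.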

Additional observations from a re-analysis of the deposited data

Results flagged for a closer look

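The named genes and the library summaries, 73 items in all, were checked in each vehicle group with Dixon's test for 1 library far from the other 4. It marked 7 values, and chance gives such a value in about 1 in 20 groups, with 146 groups checked here. In A, Clu was at 338.95 CPM in replicate 2 (the others 62.98 to 99.14), and Hddc3 was at 0.0 CPM in the same replicate (the others 42.49 to 55.57). In replicate 5 of A, Plin2 was at 64.03 CPM (the others 38.46 to 44.85) and Nudt7, a peroxisomal hydrolase, at 47.56 CPM (the others 23.6 to 29.92). Cdpf1 was at 23.51 CPM in replicate 1 of A (the others 9.26 to 12.81). These values lay high in A except that of Hddc3. In WT, Rps13 was at 1418.34 CPM in replicate 4 (the others 1569.66 to 1598.67), and Lgr5 was at 5.67 CPM in replicate 2, with 0.0 CPM in the other libraries.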

How the results depend on the processing

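No paired analysis was possible because the columns carry no replicate numbers. The 4 calls in vehicle were 4 under RLE size factors and a stricter filter, 5 with DESeq2 (4 higher, 1 lower), 7 with library totals alone, which shifted the median of all genes to 0.07, 1 with limma-trend, 1 with only the compared groups, 6 with the 4 vehicle groups, 9 with the library number range as a covariate (7 higher, 2 lower), 7 with Xist as a covariate (2 lower), 23 within libraries 1 to 36 (12 higher, 11 lower), 4 within higher numbers (1 lower), 3 without the columns with a suffix 2, and 55 without a filter (34 higher, 21 lower). With pseudogenes left out or added to parents the count was 0. Leaving out 1 library gave 0 to 9 calls, 0 to 8 higher and 0 to 1 lower; it was 0 without WT replicate 1, 3, 4 or 5, 1 without A replicate 1 or WT replicate 2, 9 without A replicate 4 and 8 without A replicate 5.
Under GW501516 the 9 calls became 5 with limma-trend, 59 without a filter, 3 with only the compared groups, 19 within libraries 1 to 36, 2 within higher numbers, 0 without the suffix columns and 4 in either pseudogene fit. The 15 calls of DA against D became 9, 71, 8 within higher numbers, 4 without the suffix columns, 2 with pseudogenes left out and 4 with them added, the first 2 being limma-trend and no filter. The difference of vehicle from GW501516 had 10 calls without a filter and 1 within higher numbers, and that of A from DA 6 and 4, and 1 with limma-trend. Of 65 named genes with a fit, 54 kept their sign in every alternative run. Signs turned within higher library numbers for Pparg (-0.076), AA465934 (-1.35), Exoc1 (0.015), Angptl4 (-0.15), Ehhadh (-0.046), Creb3l3 (0.57), Olfm4 (-0.061), Nudt7 (0.092) and H2-Bl (-2.37). They turned for Rps13 with copies added (0.043), Olfm4 without a filter (-0.014) and Xist with itself as covariate (-0.19). With 1 library left out they turned within the ranges of Pparg (-0.15 to 0.21), Creb3l3 (-0.38 to 0.014) and Olfm4 (-0.20 to 0.18). The cause of these shifts was not tested. Counts under about 10 per library limit Ppara and Psca.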
